A study of Homo sapiens with 8 samples.

Results

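The nuclear-encoded subunits of the respiratory chain were followed in 4 human cancer cell lines cultured with interferon-gamma (IFN-gamma) or left untreated. Members were the gene symbols of the NDUF, SDH, UQCR, COX and ATP5 families that name subunits of complexes I to V, and 84 of the 24462 symbols in the table met that rule. Complex I had 38 members, complex II 4, complex III 8, complex IV 15 and complex V 19. The IFN-gamma group held 1 library each of 549 (lung cancer), A375 (skin), A498 (kidney) and H1703 (lung cancer), cultured for 72 hours with 20 ng/ml of human recombinant IFN-gamma. The untreated group held 1 library of each of the same lines, grown in the same medium with serum and antibiotics. RNA was sequenced, and the values are raw counts per gene. With 1 library per line and group, the 4 lines stood as replicates, and the ratio of a single line has no replicate check.

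The respiratory chain sits in the inner mitochondrial membrane. Complexes I and II take electrons from NADH and succinate, complex III passes them to cytochrome c, complex IV passes them to oxygen, and complex V (ATP synthase) makes ATP from the proton gradient that complexes I, III and IV build. Complexes I, III, IV and V mix subunits of the mitochondrial genome with nuclear ones, while complex II is wholly nuclear. The symbol rule leaves out COX4I1 and CYC1, which are true subunits. It takes in ATP5EP2, a pseudogene, COX7A2L, a factor of respiratory supercomplexes, ATP5S and ATP5SL, which are not structural subunits of the enzyme, and ATP5L2, a copy of the subunit gene ATP5L. NDUFA4 carries a complex I symbol, but its protein is nowadays counted with complex IV. Subunits encoded in the mitochondrial genome are not analysed here.

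Total counts ranged from 6559933 to 9291154 per library. The treatment check was positive in every line, since all 9 tested genes of the IFN-gamma response list were called higher, and all 9 were higher with IFN-gamma in each of the 4 lines. Markers of the labelled tissues were present in part. SOX10, S100B and DCT had high counts in A375 alone, and PAX8 had 2097 counts with IFN-gamma and 1552 counts untreated in A498. The pigment cell genes TYR, MLANA and PMEL had at most 28 counts in A375, and the lung genes SFTPA1, SFTPB, SFTPC, NAPSA, KRT5 and NKX2-1 had at most 12 counts in 549 and H1703. Of the other lung genes, FOXA2 had 821 counts with IFN-gamma and 1059 counts untreated in 549 but at most 2 counts in H1703, FOXA1 had 41 to 74 counts in the libraries of both lines, and TP63 had at most 18 counts. CD3E, HBB and VWF had 0 counts in every library, and PTPRC had at most 33, in untreated A375. CD14 had at most 32 counts, in untreated 549. CD68, a lysosomal protein used as a macrophage marker, had 193, 202, 736 and 112 counts with IFN-gamma in 549, A375, A498 and H1703, against 99, 301, 168 and 37 counts untreated.

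Subunit transcripts were lower with IFN-gamma as a body, by small steps, and no single subunit passed the test. Of 79 members that passed the filter on low counts, 0 were called by edgeR's quasi-likelihood test, fitted with line and treatment at a Benjamini-Hochberg threshold of 0.05 over 13457 genes, where 1.92% of all genes were called, 0.327% lower. At an unadjusted p under 0.05 there were 32 members, all of them lower, while 21.1% of all genes reached that level and 10.2% did so with a lower value. The median log2 change of the members was -0.33, beside -0.02 over all genes, and 76 of 79 members lay below 0. In 47 of 79 members the ratio was below 0 in all 4 lines, which held for 15.2% of all genes, and in 0 members was it above 0 in all 4. DESeq2 and edgeR's likelihood ratio test each called the same 10 members lower (3.01% and 4.11% of all genes), and limma-voom called 0. With no filter on low counts 3 members were called lower (1.26% of all genes). Without H1703 edgeR called 5 members lower, where 1.04% of all genes were. In these bulk libraries fewer cells of a type and less RNA per cell cannot be told apart, and all values are relative to the other transcripts of the library.

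The share of all counts that fell on the members shows the same shift. In 549 it was 1.23% with IFN-gamma and 1.63% untreated, and in A375 1.06% with IFN-gamma and 1.72% untreated. In A498 it was 0.947% with IFN-gamma and 1.45% untreated. In H1703 the share was 1.44% with IFN-gamma and 1.57% untreated. The treated share was thus the lower one in each line, with the smallest gap in H1703. The median log2 ratio of the 79 members was lowest in A375 at -0.54, followed by A498 at -0.41, 549 at -0.31 and H1703 at -0.12. Ratios were below 0 in 72 members in A498, 71 in 549, 70 in A375 and 60 in H1703, beside 49.2%, 50.8%, 49.2% and 51.1% of all genes in these lines.

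All 5 complexes had a median below 0. The median log2 change was -0.34 for complex I, -0.29 for complex II, -0.46 for complex III, -0.36 for complex IV and -0.33 for complex V. By line (549, A375, A498, H1703), complex I had medians of -0.41, -0.49, -0.42 and -0.14. Complex II, with 4 genes, had -0.23, -0.66, -0.55 and 0.10. Complex II in H1703 was the one median above 0. Complex III had -0.23, -0.91, -0.41 and -0.16, complex IV -0.42, -0.61, -0.43 and -0.08, and complex V -0.26, -0.60, -0.40 and -0.07. An unadjusted p under 0.05 was reached by 14 of 38 tested members in complex I, 1 of 4 in complex II, 4 of 8 in complex III, 5 of 10 in complex IV and 8 of 19 in complex V. NDUFA4 is among the 14 of complex I by its symbol. Complex III in A375 was the lowest median of any complex and line, and no test set one complex against another.

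**Figure D1:**
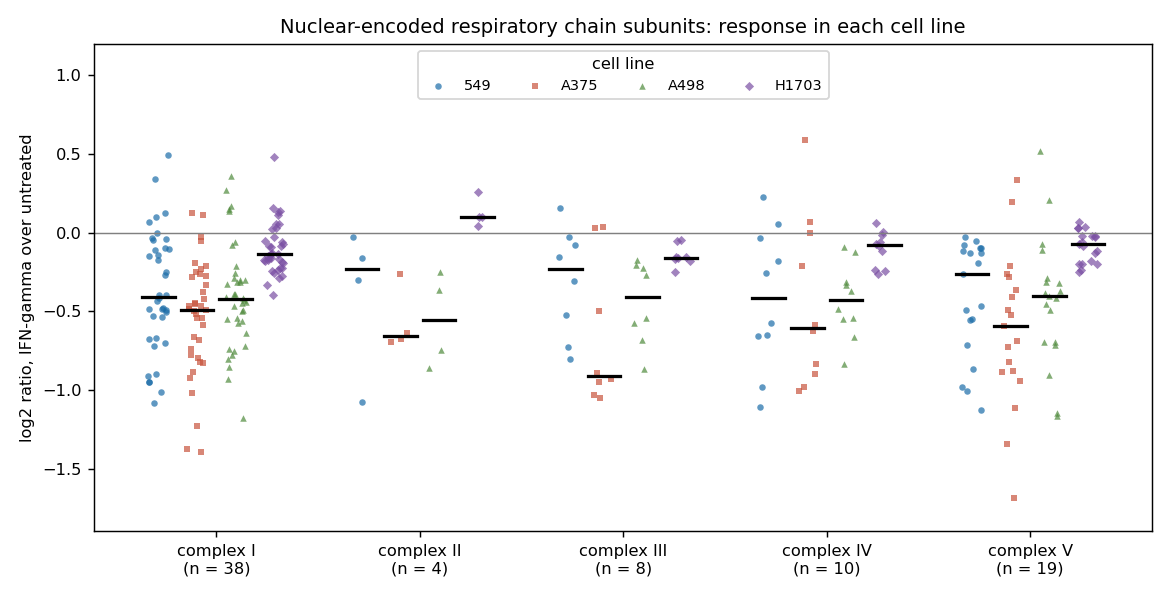
Each point is 1 subunit in 1 cell line: its log2 ratio of IFN-gamma over untreated CPM (vertical axis), by complex (horizontal axis) and line (colour and symbol). Bars are medians over the subunits of a complex. The bars of 549, A375 and A498 lie below 0 in all 5 complexes, and those of H1703 lie from -0.16 to 0.10.

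CPM values (counts scaled by TMM to libraries of one size) were summed over the members of each complex in each library. The sums follow the symbol rule and are not totals of the enzymes. Complex V takes in ATP5EP2, ATP5L2, ATP5S and ATP5SL, and complex IV takes in COX7A2L but not COX4I1. Complex III leaves out CYC1, and NDUFA4 is summed in complex I. Complex I summed to 4126, 4028, 3666 and 4665 CPM with IFN-gamma in 549, A375, A498 and H1703, against 5283, 5932, 4958 and 4994 CPM in the untreated libraries. Complex III summed to 1862, 1683, 1596 and 1749 CPM with IFN-gamma, against 2341, 2774, 2274 and 1942 CPM untreated. Under this rule and scaling, the treated libraries of both complexes did not overlap with the untreated ones. CYC1, left out of complex III, had 300 CPM in treated 549 and 181 CPM in untreated H1703. Adding CYC1 would bring the treated 549 sum above the untreated H1703 sum. Its treated library was the lower one in A375, A498 and H1703. Complex IV had 2394, 2134, 1635 and 2304 CPM with IFN-gamma, against 3222, 2861, 2228 and 2521 CPM untreated. Complex V had 4131, 3565, 3145 and 4286 CPM with IFN-gamma, against 5354, 5553, 4663 and 4586 CPM untreated. Complex II had 237, 301, 204 and 363 CPM with IFN-gamma, against 314, 413, 288 and 339 CPM untreated. Complexes II and IV overlapped between the groups, complex V did not, and complex II in H1703 was the one pair with the treated library higher. Overlap was looked at under TMM scaling alone, and the share of all genes without overlap was not counted. Over all members the treated sum was 0.668 of the untreated one in A375, 0.711 in A498, 0.772 in 549 and 0.929 in H1703.

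Within complex I the accessory subunits held all of the members at a low p. The 7 core subunits carry the flavin, the iron-sulfur clusters and the quinone site, and the accessory subunits surround them. The 31 accessory subunits, grouped by symbol with NDUFA4 among them, had a median log2 change of -0.38. Of these, 14 had an unadjusted p under 0.05. The 7 core subunits had a median of -0.18, and 0 of them were at that level. NDUFA2, an accessory subunit of the matrix arm, had 102, 84.4, 62.1 and 135 CPM with IFN-gamma in 549, A375, A498 and H1703, against 189, 157, 141 and 159.7 CPM untreated. Every treated library was below every untreated one. The share of all genes with such a separation was not counted, here or for the subunits below, which were named for a small p. Its log2 change was -0.80 ± 0.19 (SE over the fit of 4 lines, adjusted p = 0.081), the smallest p of any member. NDUFB4, an accessory subunit of the membrane arm, had 84.8, 91.5, 92.8 and 101 CPM with IFN-gamma, against 164, 186, 168 and 112 CPM untreated, again with no overlap. The log2 change of NDUFB4 was -0.75 ± 0.19 (adjusted p = 0.092). NDUFS5 had 161, 150.4, 226 and 177 CPM with IFN-gamma and 304, 258, 394 and 216 CPM untreated. The H1703 libraries narrowed the gap, and the treated A498 library was above the untreated one of H1703. For NDUFS5 the log2 change was -0.70 ± 0.17 (adjusted p = 0.086). NDUFB6, another membrane arm subunit, had -0.83 ± 0.24 (adjusted p = 0.11). The others of this group at an unadjusted p under 0.05 were NDUFA1, NDUFA3, NDUFA4, NDUFA5, NDUFA7, NDUFB1, NDUFB3, NDUFB5, NDUFB8 and NDUFB9. Their log2 changes ran from -0.63 in NDUFA5 to -0.40 in NDUFB5. NDUFA4 stands among them by its symbol alone, since its protein is counted with complex IV.

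Other complex I subunits barely differed or went different ways in different lines. NDUFS7, a core subunit with an iron-sulfur cluster, had a log2 change of 0.05 ± 0.16, and NDUFS1, the largest core subunit, had -0.04 ± 0.16. NDUFV3 had 0.07 ± 0.17. NDUFAB1, the mitochondrial acyl carrier protein, had 225, 135, 215 and 209.7 CPM with IFN-gamma, against 159.9, 180.3, 263 and 191 CPM untreated. Its treated library was the higher one in 549 and H1703 and the lower one in A375 and A498. NDUFA9, an accessory subunit, had log2 ratios of -0.43, -0.47, 0.27 and 0.48 in 549, A375, A498 and H1703. NDUFA7 was at -1.01 in 549 and -1.37 in A375 but at -0.08 in A498 and 0.06 in H1703. NDUFA13, an accessory subunit also known as GRIM-19 from work on interferon and retinoic acid, had a log2 change of -0.18 ± 0.17 (adjusted p = 0.56). The signs of NDUFS7, NDUFV3, NDUFAB1 and NDUFA9 turned under at least 1 other setting.

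Complex II, succinate dehydrogenase, has a catalytic pair (SDHA with flavin, SDHB with iron-sulfur clusters) and a pair of membrane anchors (SDHC and SDHD). SDHA had 44.4, 46.1, 45.3 and 186 CPM with IFN-gamma in 549, A375, A498 and H1703, against 94.1, 75.0, 82.3 and 174 CPM untreated. In 549, A375 and A498 the treated libraries lay below the untreated ones, while both H1703 libraries were above all others. Its log2 change was -0.63 ± 0.22 (adjusted p = 0.15). SDHB had a log2 change of -0.30 ± 0.18, SDHC -0.17 ± 0.16 and SDHD -0.29 ± 0.23. Within H1703 the treated library was the higher one for all 4 genes, and in the other lines it was the lower one for all 4.

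In complex III the small subunits had the lower median, and, as in complex I, no test set one role against another. The 5 small subunits had a median log2 change of -0.56, and 4 of them had an unadjusted p under 0.05. UQCRC1, UQCRC2 and the Rieske iron-sulfur protein UQCRFS1 had a median of -0.24, and 0 of 3 were at that level. UQCRH, the hinge protein, had 167, 261, 160.2 and 270.1 CPM with IFN-gamma, against 292, 497, 293 and 303 CPM untreated. All treated libraries were below the untreated ones, though H1703 differed little between its own 2 libraries. The log2 change of UQCRH was -0.69 ± 0.19 (adjusted p = 0.10), that of UQCRB -0.56 ± 0.18, that of UQCR10 -0.60 ± 0.20 and that of UQCRQ -0.51 ± 0.18. UQCRHL, a near-identical copy of UQCRH outside the rule, had a log2 change of -0.74 ± 0.18, and its counts were 0.197 to 0.255 of those of UQCRH, so the counting may have split reads between them. UQCRC2, a core protein, had log2 ratios of -0.16, -1.03, -0.27 and -0.15 in 549, A375, A498 and H1703, with A375 far below the rest. UQCR11 was at -0.01 ± 0.16.

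In complex IV the 9 broadly expressed subunits had a median log2 change of -0.46, and 5 of them had an unadjusted p under 0.05. COX7A2 had 111, 135, 78.3 and 221 CPM with IFN-gamma, against 239, 252, 140.1 and 233 CPM untreated. The treated H1703 library was above the untreated A498 library, so the groups overlapped between lines, while the treated library was the lower one within each line. COX7A2 had a log2 change of -0.73 ± 0.21 (adjusted p = 0.10). COX7C had -0.61 ± 0.18, COX6B1, a subunit on the side of cytochrome c, had -0.61 ± 0.20, COX6C had -0.52 ± 0.20 and COX7B had -0.46 ± 0.18. COX8A, COX6A1 and COX5B had -0.12 ± 0.16, -0.14 ± 0.16 and -0.17 ± 0.17. The tissue isoforms COX6A2, COX6B2, COX7A1, COX7B2 and COX8C did not pass the filter, with 0 to 31 counts per library. Each of their broadly expressed partners (COX6A1, COX6B1, COX7A2, COX7B and COX8A) did. COX7A2L had the highest log2 change of all members, 0.11 ± 0.19 (adjusted p = 0.76), with ratios of 0.23, 0.59, -0.13 and -0.24, and its direction turned without A375. COX4I1 and CYC1, outside the rule, had -0.21 ± 0.16 and -0.13 ± 0.18.

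In ATP synthase the 3 genes of the c ring had the lowest median by role, -0.91. The c ring is the membrane rotor, and ATP5G1, ATP5G2 and ATP5G3 encode the same mature c subunit behind different import sequences. ATP5G3 had 350.3, 203, 365 and 422 CPM with IFN-gamma in 549, A375, A498 and H1703, against 764, 514, 820.0 and 439 CPM untreated. All treated libraries were below all untreated ones, and the 2 H1703 libraries were close. Its log2 change was -0.93 ± 0.24, the lowest of any member (adjusted p = 0.087). ATP5G1 had 206, 80.3, 164 and 227 CPM with IFN-gamma, against 407, 259, 308 and 239 CPM untreated. Here too the groups did not overlap, and A375 had a log2 ratio of -1.69, the lowest of any member in any line. The log2 change of ATP5G1 was -0.91 ± 0.25 (adjusted p = 0.10), and that of ATP5G2 was -0.36 ± 0.17 (adjusted p = 0.27). ATP5C1, the gamma subunit of the central stalk, had 129.8, 89.9, 63.2 and 114 CPM with IFN-gamma, against 191, 195, 140.5 and 131 CPM untreated, with no overlap and a log2 change of -0.76 ± 0.21. ATP5B, the catalytic beta subunit, was at -0.18 ± 0.16, and ATP5A1, the alpha subunit, at -0.45 ± 0.18. The peripheral stalk (ATP5F1, ATP5H, ATP5J and ATP5O) had a median of -0.42, with -0.53 in ATP5J and -0.51 in ATP5O. The membrane subunits e, f and g (ATP5I, ATP5J2 and ATP5L) had a median of -0.55, with -0.60 in ATP5J2. ATP5EP2 had 1.01 to 1.29 times the counts of ATP5E and ATP5L2 0.068 to 0.080 times those of ATP5L, so reads may be shared in both pairs.

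**Figure D2:**
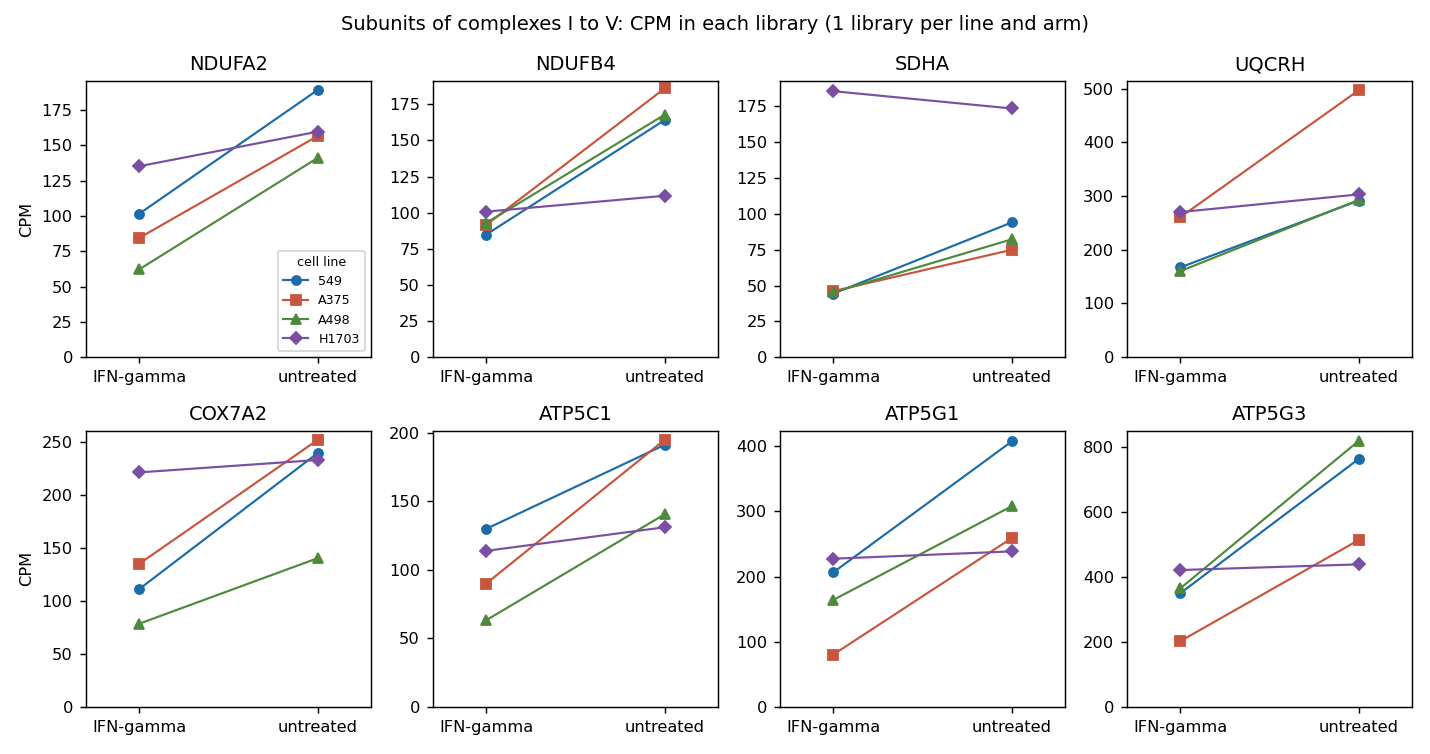
CPM (vertical axis, from 0) of 8 subunits in the IFN-gamma and the untreated library of each cell line, with a line joining the pair. NDUFA2, NDUFB4, UQCRH, ATP5C1, ATP5G1 and ATP5G3 have every treated library below every untreated one. They are among the members with the smallest p in their complexes, and the share of all genes that separate in this way was not counted. In COX7A2 and SDHA the H1703 libraries overlap with the other group.

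A paralog of NDUFA4 rose with IFN-gamma, while NDUFA4 itself lay lower without passing the test. NDUFA4 sits at the edge of complex IV, and C15orf48 encodes a paralog described in inflamed cells as its replacement there. C15orf48 had 139, 56, 419 and 2809 counts with IFN-gamma in 549, A375, A498 and H1703, against 26, 2, 23 and 415 counts untreated. The treated library was the higher one in each line, while untreated H1703 was above treated 549 and treated A375. C15orf48 rose by a log2 of 3.17 ± 0.34 (adjusted p = 0.0021), one of the 1.59% of genes called higher. By line (549, A375, A498, H1703) the ratio of scaled counts was 5.82, 31.8, 16.4 and 5.87. With 2 untreated counts, the exact 95% interval in A375 ran from 8.40 to 269 (Clopper-Pearson, counting error only), which holds the value of A498. With a prior count of 2, the log2 ratios were 2.46, 3.92, 3.94 and 2.55 in the same order of lines. NDUFA4 itself had 226, 341, 269 and 261 CPM with IFN-gamma, against 317, 497, 392 and 292 CPM untreated. The treated library was the lower one in all 4 lines, but the groups overlapped, and the log2 change was -0.43 ± 0.16 (adjusted p = 0.18). NDUFA4L2, a paralog known as a target of hypoxia signalling, had 110, 276, 145 and 97 counts with IFN-gamma, against 47, 139, 74 and 56 counts untreated. Its log2 change was 0.98 ± 0.22 (adjusted p = 0.071), which missed the threshold here and passed it with DESeq2 (adjusted p = 0.0090), with adjusted p from 0.0022 to 1 over all settings tried. C15orf48 and NDUFA4L2 are outside the symbol rule.

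**Figure D3:**
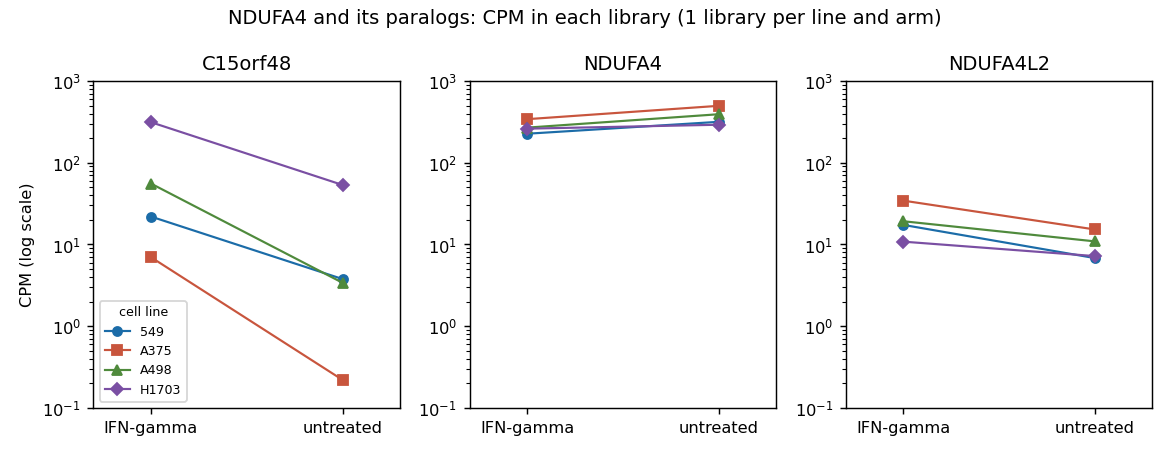
CPM (vertical axis, log scale, the same in all panels) of C15orf48, NDUFA4 and NDUFA4L2 in the IFN-gamma and the untreated library of each cell line. C15orf48 and NDUFA4L2 are higher with IFN-gamma in all 4 lines and NDUFA4 is lower in all 4.

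Words known from promoters of respiratory and of interferon-induced genes were searched near the gene starts of the members. The RefSeq table (GRCh38.p14) held a window of 250 bases before to 50 after the gene start for 68 of 84 members, and 5 words were searched on both strands, matches in capitals. The word of nuclear respiratory factor 1 (NRF1), GCGCA and GCGC with any 1 base between them, was in 23.5% of member windows, 11.9% of tested genes' windows and 6.28% of all windows. The YY1 word AANATGGC was in 32.4%, 10.4% and 6.82%, and the ETS word CCGGAAGT, bound by GABP among others, in 13.2%, 8.90% and 4.44%. Of the interferon words, the STAT word TTCNNNGAA was in 7.35% of member windows, 6.23% of tested genes' windows and 7.88% of all. The word of interferon-stimulated response elements, TTTC and TTTC with any 2 bases between them, was in 0 of 68 member windows, 2.82% of tested genes' windows and 3.65% of all. The 15 tested members with an NRF1 word had a median log2 change of -0.36 and the 49 without it -0.33. With and without the YY1 word the medians were -0.30 (22 members) and -0.36 (42), and with and without the ETS word -0.17 (9) and -0.35 (55). Windows on the plus strand, chosen after the matches were seen, are shown for NDUFB4 (chr3:120596086-120596385) and SDHA (chr5:218070-218369) with repeated NRF1 words, UQCR10 (chr22:29767119-29767418) with an NRF1 and a YY1 word that do not overlap, and C15orf48 (chr15:45430360-45430659), the gene that rose, with none of the 5 words.
NDUFB4: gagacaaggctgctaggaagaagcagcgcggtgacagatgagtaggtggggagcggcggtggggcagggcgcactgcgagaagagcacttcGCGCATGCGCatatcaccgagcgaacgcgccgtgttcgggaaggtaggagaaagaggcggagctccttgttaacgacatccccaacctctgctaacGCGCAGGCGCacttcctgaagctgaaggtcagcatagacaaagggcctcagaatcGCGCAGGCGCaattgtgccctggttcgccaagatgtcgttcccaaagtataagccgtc
SDHA: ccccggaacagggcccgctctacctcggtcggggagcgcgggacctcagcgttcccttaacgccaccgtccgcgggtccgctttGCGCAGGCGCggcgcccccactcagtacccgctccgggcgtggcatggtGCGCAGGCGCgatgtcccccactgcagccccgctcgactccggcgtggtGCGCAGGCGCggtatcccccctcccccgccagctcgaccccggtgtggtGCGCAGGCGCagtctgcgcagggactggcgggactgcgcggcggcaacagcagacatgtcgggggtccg
UQCR10: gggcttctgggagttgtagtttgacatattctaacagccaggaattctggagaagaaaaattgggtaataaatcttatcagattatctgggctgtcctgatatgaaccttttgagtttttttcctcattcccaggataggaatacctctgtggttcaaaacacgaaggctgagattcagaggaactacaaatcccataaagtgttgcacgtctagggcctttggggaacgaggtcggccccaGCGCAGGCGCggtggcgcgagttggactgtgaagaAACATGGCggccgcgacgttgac
C15orf48: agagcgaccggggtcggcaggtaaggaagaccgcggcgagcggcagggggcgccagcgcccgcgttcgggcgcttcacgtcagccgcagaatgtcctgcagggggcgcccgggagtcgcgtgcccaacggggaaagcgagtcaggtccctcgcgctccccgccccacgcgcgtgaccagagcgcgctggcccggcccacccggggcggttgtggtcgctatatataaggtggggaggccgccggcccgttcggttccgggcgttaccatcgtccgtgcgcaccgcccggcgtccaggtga
NDUFB4 holds 3 NRF1 matches and SDHA 4. A match describes letters and is not a bound site.

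The lines differed in the size of the response, but no subunit passed a test of that difference. In the response of 1 line against the other 3, 0 members and 0 of all genes were called in any line (0% of 13457 genes in each). At an unadjusted p under 0.05 there were 3 members in H1703, 1 in A375, 0 in 549 and 0 in A498, where 3.11%, 8.57%, 3.60% and 4.35% of all genes were, so the share in H1703 was near that of all genes. Over the members, the median difference was 0.36 in H1703, -0.02 in 549, -0.12 in A498 and -0.24 in A375. The 3 members in H1703 were ATP5G3 with 1.15 ± 0.38 (SE), ATP5G1 with 1.12 ± 0.46 and SDHA with 0.98 ± 0.39, and the 1 in A375 was UQCRC2 with -0.84 ± 0.37. All 4 had an adjusted p of 0.58 or more. IFN-gamma response genes had a median log2 ratio of 3.38 in H1703, beside 3.70 in 549, 3.76 in A375 and 3.95 in A498. The order of the members was most alike among 549, A375 and A498, with Spearman's rho over the 79 members of 0.667 between 549 and A375, 0.493 between 549 and A498 and 0.495 between A375 and A498. Between H1703 and 549, A375 and A498 it was -0.0392, 0.0333 and 0.112. Over all 13457 genes, the values among 549, A375 and A498 were 0.398 to 0.416, and those with H1703 0.156 to 0.302. These are descriptions across genes, which are not independent replicates, and no 2 lines share a library.

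Other mitochondrial lists had medians nearer to 0 than the members, though coenzyme Q synthesis was close to them (-0.32 beside -0.33). Mitochondrial ribosomal proteins had a median log2 change of -0.09 (77 tested, 0 called), complex I assembly factors 0.05 (14 tested, 0 called), assembly factors of the other complexes -0.15 (33 tested, 0 called) and the TCA cycle -0.16 (17 tested, 0 called). A log2 change below 0 was seen in 16 of the 17 TCA cycle genes. Import and cristae genes had -0.09 (22 tested, 0 called), coenzyme Q synthesis -0.32 (12 tested, 0 called) and mitochondrial gene expression 0.01 (14 tested, 0 called). Among 10 tested mitochondrial antioxidant genes, SOD2, the manganese superoxide dismutase, rose by a log2 of 1.64 ± 0.22 (adjusted p = 0.0064), and the other 9 were not called. The regulators of mitochondrial biogenesis had a median of 0.11 (10 tested, 0 called). Among them PPARGC1A, a coactivator of respiratory genes, had 133, 6, 8 and 0 counts with IFN-gamma in 549, A375, A498 and H1703, against 207, 77, 45 and 1 counts untreated (log2 change -1.93 ± 0.54, adjusted p = 0.10). The gene NRF1 was at 0.34 ± 0.21, and ESRRA at -0.42 ± 0.17. Glycolysis genes had a median of -0.26 (22 tested, 0 called), with -0.59 in 549.

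Proliferation genes and genes of like transcript length were set beside the members. Cytosolic ribosomal proteins had a median of -0.20 (80 tested, 0 called). By line (549, A375, A498, H1703) their medians were 0.21, -0.33, -0.51 and -0.17, where the members had -0.31, -0.54, -0.41 and -0.12. The ribosomal median was the lower one in A498 and H1703 and the higher one in 549 and A375. Members with a transcript of 500 to 1500 bases had a median of -0.34 (48 tested), beside -0.08 for the 1736 other genes of that length. Members over 1500 bases had -0.27 (28 tested), beside 0.00 for the other 11191. Proliferation genes had a median log2 change of -0.64, with 14 of 14 below 0 and 0 called, and their medians were -1.50 in A375, -0.55 in 549, -0.40 in A498 and -0.04 in H1703. The lowest and highest of these fell on the same lines as those of the members. Summed proliferation counts were 9838 to 37749 with IFN-gamma and 20111 to 34952 untreated. The part of proliferation in the subunit values was not tested.

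**Figure D4:**
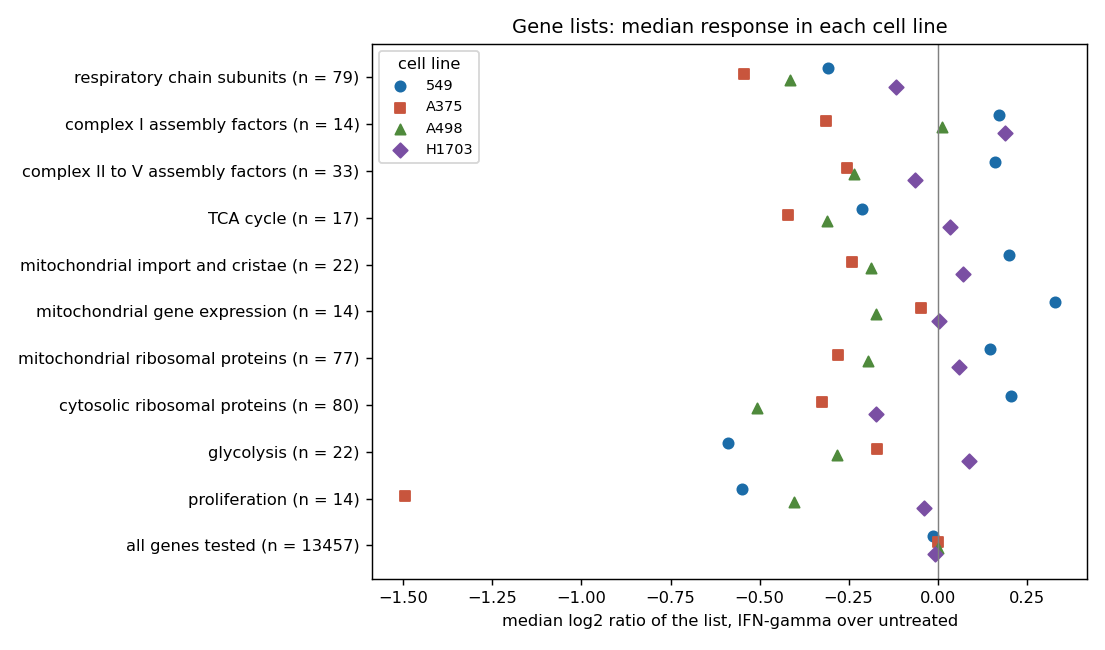
Median log2 ratio of IFN-gamma over untreated (horizontal axis) of each gene list (vertical axis, with the number of tested genes) in each cell line. The respiratory chain subunits lie below 0 in all 4 lines, as proliferation genes do, while the other mitochondrial lists have at least 1 line above 0. The TCA cycle comes near the same pattern, with H1703 alone above 0, at 0.03.

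Levels of the subunits differed between the lines whatever the treatment. Each line was set against the mean of the other 3, with its treated and untreated library as the pair of samples. In 549, 9 members were called higher and 0 lower, where 15.5% of all genes were called higher and 10.1% lower. In A375, 13 were higher and 2 lower (17.7% and 13.9% of all genes), and in H1703, 6 were higher and 7 lower (18.1% and 17.5%). In A498, 1 was higher and 17 lower (19.9% and 14.1%). Of the 17, 9 belong to complex I, near the share of complex I among tested members (38 of 79). In all, 37 of 79 members were called in at least 1 line, where 63.3% of all genes were, a larger share than that of the members. The members' share called higher was under that of all genes in each line, and their share called lower was above it in A498 alone. Both libraries of a line come from the same cell line, so these tests compare 4 lines by 2 libraries each. Their p-values rest on how well the 2 libraries of a line agree beyond the treatment term, and not on separate cultures.

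The largest differences were in H1703. NDUFS6, an accessory subunit of complex I, had 202, 193, 103 and 512 CPM with IFN-gamma in 549, A375, A498 and H1703, against 222, 263, 144 and 561 CPM untreated. Both H1703 libraries were above all others and both A498 libraries below. The log2 difference was 1.58 ± 0.18 in H1703 (adjusted p = 0.00027) and -1.27 ± 0.21 in A498 (adjusted p = 0.0018). SDHA was higher in H1703 by 1.58 ± 0.23 (adjusted p = 0.0011) and NDUFA9 by 1.55 ± 0.23 (adjusted p = 0.0010). NDUFA9 had 69.0, 65.3, 48.6 and 223 CPM with IFN-gamma, against 93.2, 90.5, 40.3 and 159.6 CPM untreated, with H1703 highest and A498 lowest in both groups. SDHA and NDUFS6 lie near one end of chromosome 5, where, of the 29 other tested genes from the end of the chromosome to 10 places past NDUFS6, 26 were called higher in H1703 (89.7%), beside 26.6% of the 576 tested genes on the rest of the chromosome. In 549, A375 and A498, 2, 2 and 0 of the 29 were called higher. Of 20 tested neighbours of NDUFA9 on chromosome 12, 13 were called higher in H1703 and 2 lower, beside 18.1% and 17.5% of all genes. The rest of chromosome 12 was not counted. The neighbours on both chromosomes were looked at after the values were seen.

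In the other lines the differences were smaller and spread over the complexes. A498 was lower for NDUFV1, the flavin and NADH subunit of complex I, by a log2 difference of -1.09 ± 0.19, for NDUFV2, its iron-sulfur partner, by -1.14 ± 0.21, for NDUFA9 by -1.26 ± 0.26, for COX8A by -1.07 ± 0.20 and for the ATP synthase subunit ATP5E by -0.90 ± 0.20. It was higher for NDUFA5 alone (0.85 ± 0.22). In 549, NDUFS8 was higher by 1.06 ± 0.18 and ATP5SL, which is not a subunit, by 1.21 ± 0.21. In A375, NDUFA13 was higher by 0.93 ± 0.18 and NDUFS7 by 0.81 ± 0.18, and NDUFA3 had a difference of -0.94 ± 0.22. Each of these had an adjusted p under 0.05, and further subunits are in the plot of level differences.

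**Figure D5:**
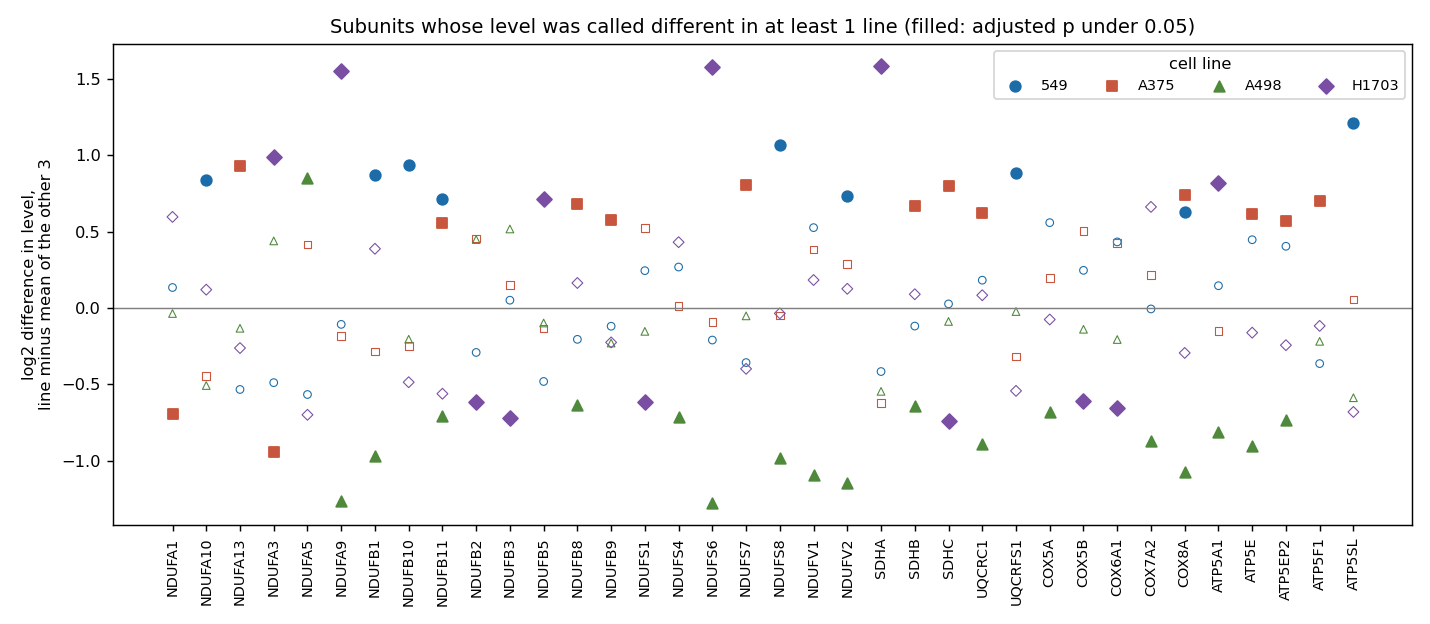
Log2 difference in level of each line from the mean of the other 3 (vertical axis) for subunits called in at least 1 line (horizontal axis), with filled symbols for an adjusted p under 0.05. SDHA, NDUFS6 and NDUFA9 stand highest, at 1.55 to 1.58 in H1703, and most filled symbols below 0 belong to A498.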

How the data were processed

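RNA was measured by sequencing in 8 libraries, 1 per cell line and arm, and groups were taken from the labels. The labels' protocols name a poly(A) SMARTer stranded kit and the QuantSeq 3' kit, and which made these libraries is not settled. The submitters' processing notes list Bowtie2, edgeR and hg19; versions, annotation and strand setting were not given in the sources used here, so genes with overlapping or near-identical copies are uncertain. The authors deposited 1 table of raw counts per gene beside log2 normalized values, per the file headers. Counts gave every main result and the log2 values 1 alternative.

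Rows were summed by symbol (286 of 24462 symbols, 0 of them members). Genes were kept by filterByExpr (minimum count 10, minimum total 15), scaled by TMM and tested with edgeR 4.0.16 in R 4.3.3 by the quasi-likelihood test with cell line and treatment terms (3 residual degrees of freedom) and Benjamini-Hochberg adjustment at 0.05 over 13457 genes. An SE is the log2 change divided by the root of F. Single-line ratios are log2 ratios of TMM CPM with a prior count of 2. Responses and levels of 1 line against the other 3 were contrasts in the same table. The line pairs the libraries, since both come from the same cell line. Deviations from the arm means correlated at 0.85 to 0.90 within a line and at most -0.09 between lines. Taking off the arm means pushes the values between lines below 0, so those values are no support for the pairing. With 4 lines an exact paired permutation cannot give a two-sided p under 0.125. The p-values rest on the spread between lines, since no separate cultures of a line were analysed.

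Members and lists were chosen with earlier results of these data known. Role groups, the transcript length split (GENCODE 29), ribosomal lists, neighbours on the chromosome, copy pairs and shown promoters were chosen after values were seen. Named were, per complex, the 3 members with the smallest p, per line the 3 highest and 3 lowest ratios with at least 50 counts in both libraries, the 2 smallest p of each contrast, filtered members, isoform pairs and 4 relatives outside the symbol rule; other named genes were chosen after their values were seen. Values of single genes withheld for evaluation are not reported here, though counts, sums and medians include them. Alternatives were scaling by upper quartile, by RLE or by library size alone, 2 other filters (none, and CPM of at least 1 in 4 libraries), 4 other tests (limma-voom with limma 3.58.1, DESeq2 1.42.0, robust empirical Bayes and the likelihood ratio test), a fit without the line, each line left out, the authors' log2 values and prior counts of 0.5 and 5. The fits were tested on simulated counts. Promoter windows are from RefSeq (GRCh38.p14) and share no coordinates with the counts. Intervals cover counting error only.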

Additional observations from a re-analysis of the deposited data

Results flagged for a closer look

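In 57 sets of 4 line values screened for a line far from the other 3, chance alone flags about 1 in 20. UQCRH had a log2 ratio of -0.17 in H1703, beside -0.93 to -0.80 in the other lines. ATP5G3 had -0.059 in H1703, beside -1.34 to -1.13. COX7B had 0.0057 in H1703, beside -0.65 to -0.55. UQCRC2 had -1.03 in A375, beside -0.27 to -0.15. The median of complex II was 0.10 in H1703 and -0.66 to -0.23 in the other lines, so its sign differed, and that difference was not tested.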

How the results depend on the processing

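Of 405 values of the main results under other settings, 395 were classed as unchanged. For a count this meant staying within a set factor of the main count. For a median or a sum it meant moving by less than its standard deviation over the 4 lines. Direction was not checked in this class, so it does not exclude a change of sign. The count of members called was 3 with no filter, 10 with DESeq2, 10 with the likelihood ratio test, 5 without H1703 and 0 without each other line, so it ranged from 0 to 5 when a line was left out. Scaling moved 4 sums: with library size alone, complex I in untreated H1703 came to 5497 CPM, complex III in treated A375 to 1540 and in treated H1703 to 1897, and with upper quartile scaling complex III in treated A498 to 1474. For levels, members called in A375 were 8 with library size alone, and in H1703 20 with DESeq2. The shares of all genes called in these level fits were not counted, so the counts say nothing particular to the members. The cause of these differences was not tested.

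The fit with the cell line as block is the one reported. With no replicate block 0 members were called, 10 had an unadjusted p under 0.05 and 0 of all genes were called, and C15orf48 had a log2 change of 2.71 (adjusted p = 1). In each other setting C15orf48 was called, with adjusted p up to 0.013.

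Among the single members named by rule, which were followed through the other settings, 13 values turned sign. Other members, UQCR11 and NDUFS1 among them, were not followed in this way. Without A498, 73 members had a log2 change below 0, beside 76 in the main fit. With a line left out, COX7A2L ran from -0.048 (without A375) to 0.22, NDUFV3 from -0.013 (without 549) to 0.18, NDUFAB1 from -0.18 to 0.11 (above 0 without A375, and 0.066 without A498), and ATP5S from -0.23 to 0.24 (without 549). ATP5SL was 0.012 without 549, and NDUFA9 ran from -0.22 to 0.11 (without 549 or A375). With library size alone NDUFV3 was -0.0066 and NDUFS7 -0.025, with upper quartile scaling NDUFS7 was -0.017, with no filter NDUFAB1 was 0.0029, and with no replicate block NDUFA9 was 0.083. The median log2 change of the members ran from -0.28 without A375 to -0.41 without H1703. ATP5S, with 29 to 95 counts per library, and the filtered isoforms are limited by depth.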
